A study of Mus musculus with 2 samples.

Results

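The immediate early genes described here are 10 genes that cells transcribe within minutes of a stimulus, namely Fos, Fosb, Jun, Junb, Jund, Egr1, Ier2, Zfp36, Dusp1 and Btg2. They were chosen by symbol from the 32285 mouse genes of the count tables, and all 10 were listed and had unique molecular identifiers (UMIs, 1 per captured RNA molecule) in both libraries. The data were 2 droplet single-cell RNA-seq libraries of liver (10x Genomics 3′ chemistry), 1 labelled WT and 1 labelled miR-33 HKO with the genotype AlbCRE. HKO mice carried miR-33 loxP/loxP alleles and a Cre recombinase driven by the albumin promoter, which deletes miR-33 in hepatocytes, and WT mice were their littermates; whether the WT mice carried loxP alleles was not stated. Both groups were males kept on chow and, from 8 weeks of age, on CD-HFD, a high-fat diet with no added choline, for 6 months. Each library came from 3 livers pooled before loading, so animals could not be told apart. The livers were perfused with collagenase, hepatocytes and sorted live non-parenchymal cells were prepared in parallel, and both were mixed at equal numbers. With 1 library per genotype there was no replicate, so no difference between genotypes was tested, no p-value was computed, and each 95% interval given reflects counting error alone.

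Immediate early genes need no new protein for their induction. Growth factors, cytokines and stress act on MAP kinases, which activate factors already bound at these promoters, such as serum response factor with its ternary complex partners at CArG boxes and CREB at cAMP response elements. Fos, Fosb, Jun, Junb and Jund encode subunits of AP-1, a dimer of bZIP proteins, Egr1 encodes a zinc finger transcription factor, and Ier2 encodes a small nuclear protein. Zfp36, Dusp1 and Btg2 belong to the feedback arm: Zfp36 (tristetraprolin) destabilizes AU-rich mRNAs, Dusp1 dephosphorylates MAP kinases, and Btg2 is an antiproliferative protein that interacts with the CCR4-NOT deadenylase. Enzymatic dissociation of tissue is itself known to induce these genes, as is regeneration of the liver after loss of tissue.

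Promoter windows from RefSeq (GRCm38.p6, 250 bases before to 50 bases after the start, 300 bases in all) were found for 8 of the 10 members. The windows of the 3 feedback genes are shown because Zfp36 and Dusp1 had the lowest ratios between the libraries described below, with Btg2 beside them, and that of Fos is shown as the founding member for comparison. Capitals mark matches, on either strand, to the letters TGACGTCA (a full cAMP response element, CRE), GCGNGGGCG (an EGR site), TATAAA (the core element of the TATA box) and to the CArG box. The windows are chr12:85473640-85473939 (plus strand) for Fos, chr7:28379179-28379478 (minus) for Zfp36, chr17:26508423-26508722 (minus) for Dusp1 and chr1:134079106-134079405 (minus) for Btg2.
Fos: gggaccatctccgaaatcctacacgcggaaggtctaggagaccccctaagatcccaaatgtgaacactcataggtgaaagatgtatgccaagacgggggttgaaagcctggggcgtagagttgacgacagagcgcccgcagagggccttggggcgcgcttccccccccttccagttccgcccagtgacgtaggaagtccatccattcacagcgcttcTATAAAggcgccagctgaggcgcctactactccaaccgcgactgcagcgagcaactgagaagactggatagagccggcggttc
Zfp36: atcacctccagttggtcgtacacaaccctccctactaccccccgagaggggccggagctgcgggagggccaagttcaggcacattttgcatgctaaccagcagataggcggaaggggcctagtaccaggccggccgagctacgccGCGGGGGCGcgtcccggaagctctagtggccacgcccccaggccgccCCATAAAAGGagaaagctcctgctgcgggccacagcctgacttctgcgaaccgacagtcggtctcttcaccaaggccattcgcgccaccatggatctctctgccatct
Dusp1: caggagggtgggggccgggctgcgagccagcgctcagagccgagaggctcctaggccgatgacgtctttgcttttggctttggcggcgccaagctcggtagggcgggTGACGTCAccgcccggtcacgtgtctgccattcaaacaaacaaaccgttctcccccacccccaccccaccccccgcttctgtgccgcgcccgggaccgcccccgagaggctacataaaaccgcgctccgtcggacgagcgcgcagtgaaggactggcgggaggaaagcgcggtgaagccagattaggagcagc
Btg2: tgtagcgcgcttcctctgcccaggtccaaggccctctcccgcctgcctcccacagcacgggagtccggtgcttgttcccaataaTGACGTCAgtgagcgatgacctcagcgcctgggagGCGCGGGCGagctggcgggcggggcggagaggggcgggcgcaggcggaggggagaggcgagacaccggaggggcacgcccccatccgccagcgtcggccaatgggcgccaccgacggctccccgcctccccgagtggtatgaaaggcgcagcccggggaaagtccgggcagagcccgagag
The Fos window held a TATA box from base −33 relative to the start. Zfp36 had a CArG box at −58 to −49 and an EGR site at −105 to −97, Dusp1 had a CRE at −143 to −136, and Btg2 had a CRE at −166 to −159 and an EGR site at −131 to −123. Of the other windows, Fosb had an EGR site at −50 to −42 and Junb a TATA box at its start, and none of these motifs was found in the windows of Jun and Jund. The window of Jund (chr8:70697489-70697788) ends before the gene start in the annotation used for the positions below, so it does not describe the bases at that start, and the RefSeq starts of Zfp36 and Dusp1 lie inside the longer gene models given there. Among all 32851 mouse promoter windows of the same length, a CArG box was found in 1.63%, the CRE in 1.79%, the EGR site in 5.55% and the TATA box in 13.6%. The AP-1 site TGANTCA was in 7.81% of all windows and in none of the members' windows. A match describes letters in a window, not a bound site.

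The genes lie on 7 chromosomes of GRCm38 (GENCODE M21). Fos is on chromosome 12 (85473890 to 85477273, plus strand), Fosb on chromosome 7 (19302696 to 19310051, minus), Jun on chromosome 4 (95049034 to 95052222, minus), Junb on chromosome 8 (84974484 to 84978718, minus) and Jund on chromosome 8 (70698949 to 70700616, plus). Egr1 is on chromosome 18 (34859823 to 34864984, plus), Ier2 on chromosome 8 (84661331 to 84662852, minus), Zfp36 on chromosome 7 (28376784 to 28380253, minus), Dusp1 on chromosome 17 (26505590 to 26562128, minus) and Btg2 on chromosome 1 (134075170 to 134079120, minus). Jun, Jund and Zfp36 overlap annotated antisense genes (Junos, Gm11175 and Gm44710), Junb overlaps Prdx2 on the other strand, and Dusp1 overlaps Ergic1 on the other strand and AC122252.1 on its own strand. Whether the counting step used strand was not given in the sources used here, so reads of these genes and their partners may not be fully separated.

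There were 30078 barcodes with 130451427 UMIs for WT and 20000 barcodes with 52563185 UMIs for HKO, of which 29620 and 18247 passed the filters. Levels are given as CPM, here UMIs per 1000000 UMIs of nuclear-encoded genes, summed over all barcodes of a class. The most frequent depth of a barcode was 2600 UMIs in WT and 785 in HKO. Barcodes under 2 times that depth were called barcodes of free RNA depth, since droplets with no cell also capture RNA shed into the suspension. Deeper barcodes of 5000 or more UMIs, outside the clusters named from markers of another cell type or left unnamed, were called hepatocyte-like, with a floor of 5200 UMIs in WT. This gave 1944 WT and 1601 HKO hepatocyte-like barcodes with a median of 19945 and 10711 UMIs, against 26858 and 12129 barcodes of free RNA depth. In HKO 2338 further barcodes outside those clusters, 12.8% of the barcodes kept, lay between 2 times the commonest depth and 5000 UMIs (median 2191) and were set apart as intermediate depth, whereas WT had none because its floor was above 5000 UMIs. The alternative that required 2 times the commonest depth alone counted them as hepatocyte-like. Among the clusters not named from another cell type, 1 with a median of 31257 UMIs held 284 WT and 14 HKO barcodes. Its part in the differences between the libraries was not tested. The 8 hepatocyte markers summed to 75735 CPM in WT and 61959 CPM in HKO hepatocyte-like barcodes, whereas each of the other 12 marker lists summed to between 0.353 and 481 CPM in WT and between 0.0582 and 350.3 CPM in HKO. At free RNA depth the same 8 markers summed to 68688 CPM in WT and 65195 CPM in HKO, so depth, and not this sum, sets the class apart from free RNA. The barcode names of the WT library were not analysed here, so barcodes shared between the libraries were not counted.

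The 10 genes together had 364079 UMIs for WT and 115354 for HKO, or 0.311% and 0.272% of the UMIs of nuclear-encoded genes. In hepatocyte-like barcodes the 3 feedback genes and Ier2 were lower in HKO, the FOS and JUN subunits differed less, and Egr1 was close in both libraries. Of the 10 members, 8 were lower and 2 higher in HKO, and the median ratio of HKO over WT was 0.779 (log2 −0.36), against a median log2 of 0.03 over the 7492 genes whose mean of both libraries reached 10 CPM. Past 1.5-fold, 3 members were lower (Zfp36, Dusp1 and Ier2), where 3.88% of all genes were, and 0 were higher, where 2.98% of all genes were. No member passed 2-fold in either direction, whereas 57 of the 7492 genes (0.761%) were lower and 32 higher past that fold. Zfp36 did pass it when at least 2 times the commonest depth alone was required (log2 −1.03) and over all UMIs, mitochondrial ones included, by little (−1.002).

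Zfp36 had 24290 UMIs in WT and 5015 in HKO hepatocyte-like barcodes, or 571 CPM (564 to 578) and 292 CPM (284 to 300.0). Its ratio was 0.511 (0.496 to 0.527), the lowest of the 10. Dusp1, the MAP kinase phosphatase, was at 303 CPM (298 to 308) in WT barcodes and at 160.5 CPM (155 to 167) in those of HKO, a ratio of 0.529 (0.508 to 0.552). These ratios did not rest on single droplets, since without the barcode with the most UMIs in each library they were 0.512 and 0.529. For Btg2 the WT level was 272 CPM (267 to 277) and the HKO level 185 CPM (179 to 192), a ratio of 0.682 (0.655 to 0.709), which is just short of 1.5-fold. Its log2 of −0.55 passed that fold under 3 alternatives, at −0.68 with at least 2 times the commonest depth alone required, −0.59 over all UMIs and −0.59 after thinning to 5000 UMIs.

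For Ier2 the levels were 257 CPM (252 to 262) and 167 CPM (161 to 173), a ratio of 0.648 (0.622 to 0.676). It fell short of 1.5-fold, with a log2 of −0.42 against −0.63, when barcodes were weighted equally, and likewise with equal weight to each bin of mitochondrial share (−0.41), after thinning (−0.47), without the bin under 1% (−0.52) and, by little, with at least 2 times the commonest depth alone required (−0.577). Egr1, by contrast, differed little, with 403 CPM (397 to 409) for WT and 422 CPM (412 to 432) for HKO. Its ratio of 1.05 (1.02 to 1.08) was above 1 by more than counting error but turned to the other side under a different depth minimum, with a log2 of −0.052 when at least 2 times the commonest depth alone was required.

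Among the FOS subunits, Fos was at 382 CPM (376 to 388) in WT and, in HKO, at 323 CPM (315 to 332), a ratio of 0.846 (0.820 to 0.872). Of the 5 AP-1 subunits, Fosb alone had a higher level in HKO, with 51.7 CPM (49.6 to 53.9) against 58.6 CPM (55.0 to 62.3), a ratio of 1.13 (1.05 to 1.22). This ratio also moved with the depth minimum, to a log2 of 0.0093 under the same alternative, and to 0.46 when each bin of mitochondrial share had equal weight. Of the JUN subunits, Jun was the farthest from 1, with 490.3 CPM (484 to 497) for WT and 352 CPM (343 to 361) for HKO, a ratio of 0.718 (0.697 to 0.738). Junb had 278 and 244 CPM, a ratio of 0.878 (0.847 to 0.910), and Jund had 308 and 290.0 CPM, a ratio of 0.941 (0.911 to 0.972). Jund, whose transcript is known to be the least inducible of the JUN genes, was the member whose ratio lay closest to 1 on the low side.

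The same members were read in barcodes of free RNA depth, because shed RNA is also present in every other droplet. There, 9 of 10 members had the lower level in HKO. Their median log2 ratio was −0.51, against −0.11 over 7172 genes. Past 1.5-fold, 5 members were lower (Fos, Jun, Zfp36, Dusp1 and Btg2), where 8.32% of all genes were, and 0 were higher, where 6.05% of all genes were. At this depth Zfp36 was at 582 and 237 CPM in the WT and HKO libraries, a ratio of 0.408 (0.392 to 0.425), and Dusp1 had 333 and 133 CPM, a ratio of 0.399 (0.377 to 0.421). Both ratios were thus lower than in hepatocyte-like barcodes.

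The level in hepatocyte-like barcodes stood above that of free RNA most clearly for 5 members. In WT the ratio of hepatocyte-like over free RNA depth was 2.33 (2.18 to 2.48) for Fosb, 1.66 for Btg2, 1.44 for Egr1, 1.38 for Jun and 1.33 for Fos. It was 1.11 for Jund, 0.993 (0.970 to 1.02) for Ier2, 0.982 (0.960 to 1.00) for Junb, 0.981 (0.965 to 0.997) for Zfp36 and 0.909 (0.890 to 0.929) for Dusp1. HKO gave 2.12 for Fosb, 1.90 for both Fos and Egr1, 1.72 for Btg2, 1.54 for Jun, 1.23 for Zfp36, 1.21 for Dusp1, 1.12 for Jund, 1.06 for Junb and 0.855 for Ier2. The part of free RNA in the difference between the libraries was not tested.

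**Figure D1:**
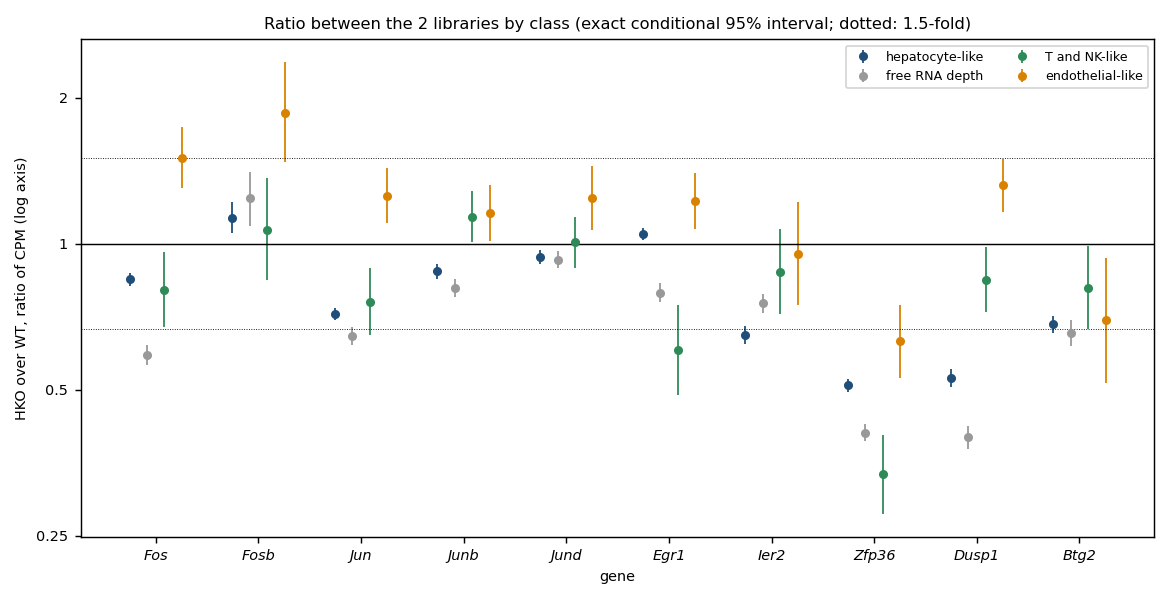
Ratio of HKO over WT (y axis, ratio of CPM on a log axis) for each member (x axis) in hepatocyte-like, free RNA depth, T and NK-like and endothelial-like barcodes. Points are ratios of summed counts with exact conditional 95% intervals, and dotted lines mark 1.5-fold. Zfp36 lies below 1 in all 4 classes, free RNA included, from 0.335 to 0.629 before free RNA is subtracted, whereas Dusp1 lies at 0.529 in hepatocyte-like and at 1.32 in endothelial-like barcodes.

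The share of UMIs from mitochondrially encoded genes, which rises in damaged cells and differs between nuclei and whole cells, varied widely among hepatocyte-like barcodes. They were therefore split into 6 bins of that share, with 170 to 625 barcodes per bin and library. Zfp36 and Dusp1 were lower in HKO in all 6 bins, with ratios of 0.334 to 0.673 and of 0.272 to 0.557, and every interval lay below 1. Btg2 was also lower in all 6 bins (0.520 to 0.879), and in 5 of them the interval lay below 1. Fos and Ier2 were lower in 5 bins each, and Jun in 4. Fosb and Egr1 were lower in 3 bins and higher in 3. The median ratio over the members was 0.583 in the bin under 1%, 0.998 at 1 to 5%, 0.736 at 5 to 10%, 0.804 at 10 to 20%, 0.686 at 20 to 35% and 1.08 at 35 to 50%. The members' median difference was thus not seen in every bin, whereas those of Zfp36 and Dusp1 were.

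The bin under 1% had the lowest summed level of the members in both libraries, by a wider margin in HKO. The members together had 1758 CPM (1698 to 1820) in the 170 HKO barcodes of this bin, against 2383 to 3434 CPM in the other 5 HKO bins. In WT the 196 barcodes under 1% had 3068 CPM (3028 to 3109), against 3223 to 3607 CPM in the other bins. Within HKO, Fos had 159 CPM (141 to 178) under 1% and 404 CPM (374 to 435) at 1 to 5%, and Dusp1 had 71.6 CPM (59.8 to 85.0) and 166 CPM (148 to 187). Of the members, 7 had their lowest HKO level in this bin, while Fosb, Jun and Ier2 had theirs at 10 to 20%. In WT, 5 members (Fos, Jun, Egr1, Dusp1 and Btg2) were lowest in it. Alb was at 7719 CPM in HKO barcodes under 1% and at 18899 to 43826 CPM in the other HKO bins, and in WT it was at 31711 CPM under 1% and at 36499 to 55694 CPM in the other bins. Malat1, a nuclear-retained RNA, was at 14025 CPM in the HKO bin and at 2881 to 18202 CPM in the other HKO bins, and at 8510 CPM in the WT bin and 4333 to 10322 CPM in the other WT bins, so the bin under 1% lay within the range of the others. The part of these differences in the members' levels was not tested.

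Across the 6 bins of WT, the highest level of a member exceeded its lowest by 1.17-fold for Junb and by up to 1.96-fold for Fosb. Across those of HKO the span was wider, from 1.66-fold for Jund to 3.61-fold for Fosb, and 6 members spanned more than 2-fold. The Fosb level in HKO was highest at 35 to 50%, with 142 CPM (119 to 169), against 39.5 CPM at 10 to 20%. Ier2 was the one member with its highest WT level under 1%: it was at 338 CPM (325 to 352) under 1% and 332 CPM at 1 to 5%, had its lowest level, 175 CPM (168 to 183), at 10 to 20%, and was at 252 CPM at 35 to 50%. In HKO Ier2 was also lowest at 10 to 20% (141 CPM), and highest at 35 to 50% (318 CPM, 282 to 356).

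A direct contrast set barcodes with 20 to 50% mitochondrial UMIs against those under 5%. The members' median log2 ratio was 0.19 in WT and 0.21 in HKO, against 0.21 and 0.18 over all genes, so the members' medians were close to those of all genes. Past 1.5-fold, 1 member was higher in WT (Fosb, 47.4 against 77.3 CPM, ratio 1.63, 1.47 to 1.82), where 26.0% of all genes were, and 0 were lower, where 16.3% were. In HKO 0 members were past 1.5-fold in either direction, where 21.3% of all genes were higher and 20.6% were lower. Btg2 was higher in both libraries, with a ratio of 1.39 (1.33 to 1.46) in WT and 1.33 (1.19 to 1.49) in HKO, and so was Egr1 (1.38 and 1.26). Ier2 and Zfp36 were on opposite sides of 1, with 0.701 and 0.882 in WT and 1.17 and 1.14 in HKO. These values depended on the bin under 1% in HKO and on the denominator, as given in the closing section.

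**Figure D2:**
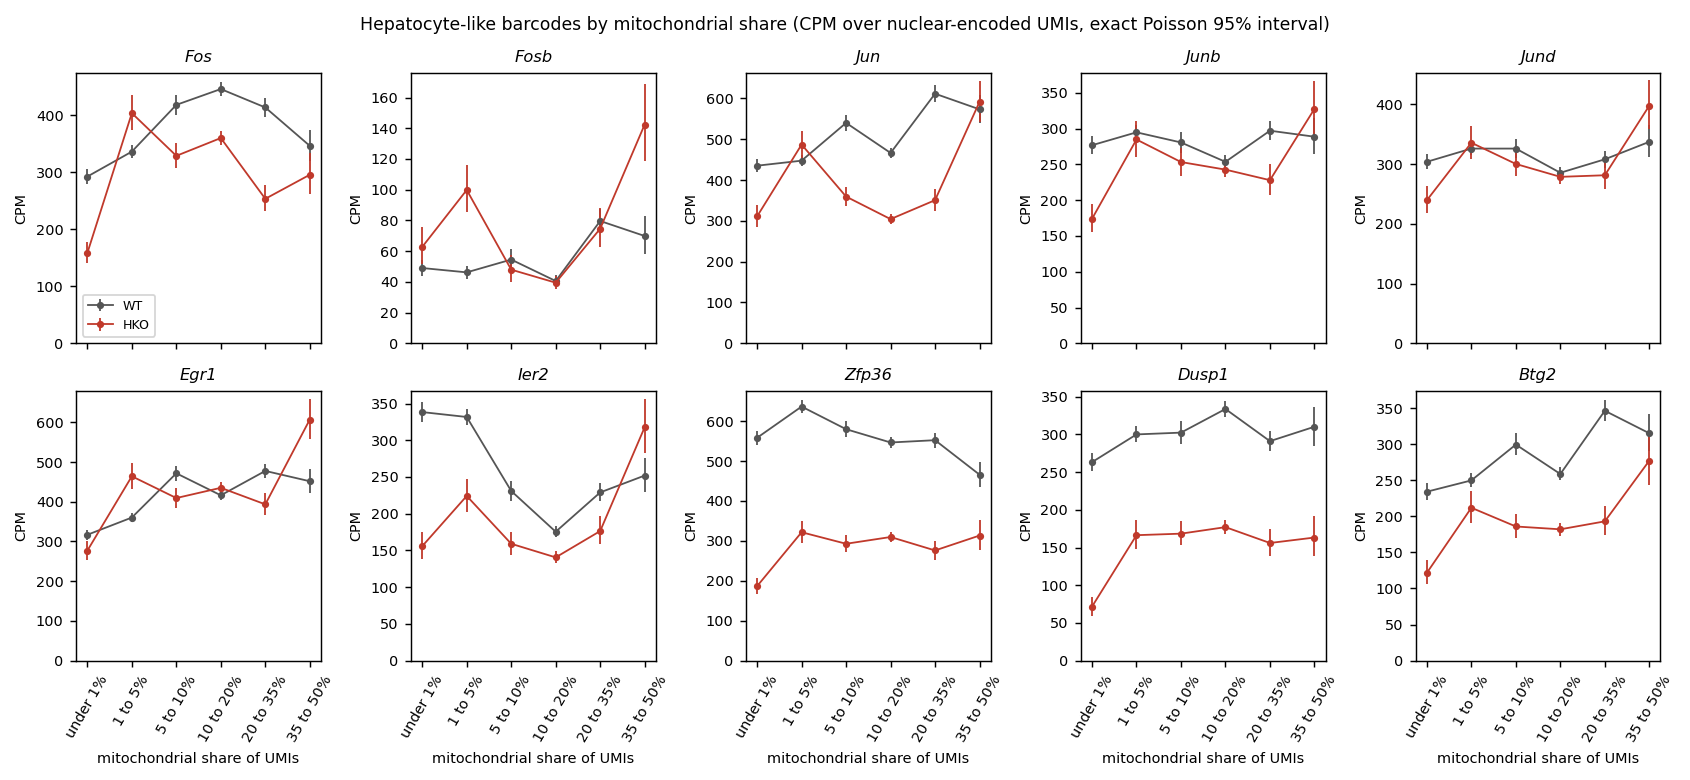
Level of each member (y axis, CPM over nuclear-encoded UMIs) in hepatocyte-like barcodes by mitochondrial share of UMIs (x axis, 6 bins), with WT in grey and HKO in red. Points are summed counts with exact Poisson 95% intervals. The Zfp36 and Dusp1 curves of HKO run below those of WT in all 6 bins, and in HKO the leftmost point, under 1%, is the lowest for 7 of the 10 members.

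The next comparison asked in which liver cell types these genes were highest. Barcodes were put in order by level over the 10 WT and 13 HKO classes that held at least 20 of them, free RNA depth included, as well as HKO intermediate depth, and unnamed clusters left out. Hepatocyte-like barcodes ranked between the fourth and the seventh in WT and between the sixth and the tenth in HKO for every member. In HKO the 27 cholangiocyte-like barcodes were highest for 8 members. Fos was at 2343 CPM (2154 to 2543) there, Egr1 at 2926 CPM (2715 to 3149), Jun at 2536 CPM (2340 to 2744) and Fosb at 1089 CPM (962 to 1228), and these intervals did not overlap those of the class that came second. The 12 WT cholangiocyte-like barcodes were too few to rank, and 1 barcode held 32.1% of their Fos UMIs, but their levels were also high, with 1649 CPM for Fos, 1694 CPM for Egr1 and 2014 CPM for Jun.

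Myeloid and endothelial classes came next for most members. Barcodes with both macrophage and monocyte or dendritic markers (31 in WT and 148 in HKO) had the highest Dusp1 level in both libraries, 1395 CPM (1296 to 1498) and 1458 CPM (1396 to 1522). Zfp36 was at 1066 CPM (981 to 1158) and 718 CPM (675 to 764) in them, and Junb at 1018 and 1205 CPM. The 34 HKO neutrophil-like barcodes had Junb at 1492 CPM (1227 to 1797) and Zfp36 at 820 CPM (627 to 1053). For most members the first and second classes overlapped in WT, so their order is not set beyond counting error. The exception was Dusp1, whose second class, barcodes with endothelial, macrophage and stellate markers, was at 1137 CPM.

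Erythroid-like barcodes, and for some members lymphoid ones, were at the low end. Erythroid-like barcodes (40 in WT and 95 in HKO) were lowest for 6 members in WT and for 9 in HKO, with Jun at 196 CPM (133 to 278) in WT and 102 CPM (58.2 to 165) in HKO. In WT the 36 B and plasma-like barcodes were lowest for Fos (161 CPM) and Ier2 (139 CPM). Scaled by Alb, free RNA corresponded to 109% of the Jun UMIs in WT erythroid-like barcodes and to 92.9% in those of HKO, and to 78.7% of the Fos and 81.8% of the Ier2 UMIs in WT B and plasma-like barcodes. T and NK-like barcodes (171 and 701) were lowest for Zfp36 in both libraries, at 317 CPM (283 to 354) for WT and 106 CPM (91.2 to 123) for HKO, and for Egr1 in WT at 178 CPM. The free RNA profile, scaled to the Alb level of the class, corresponded to 86.6% of the Zfp36 UMIs and 74.5% of the Egr1 UMIs in WT T and NK-like barcodes, against 9.68% of the Fosb and 31.7% of the Junb UMIs. In HKO the shares were 65.4%, 60.6%, 6.96% and 14.0%.

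**Figure D3:**
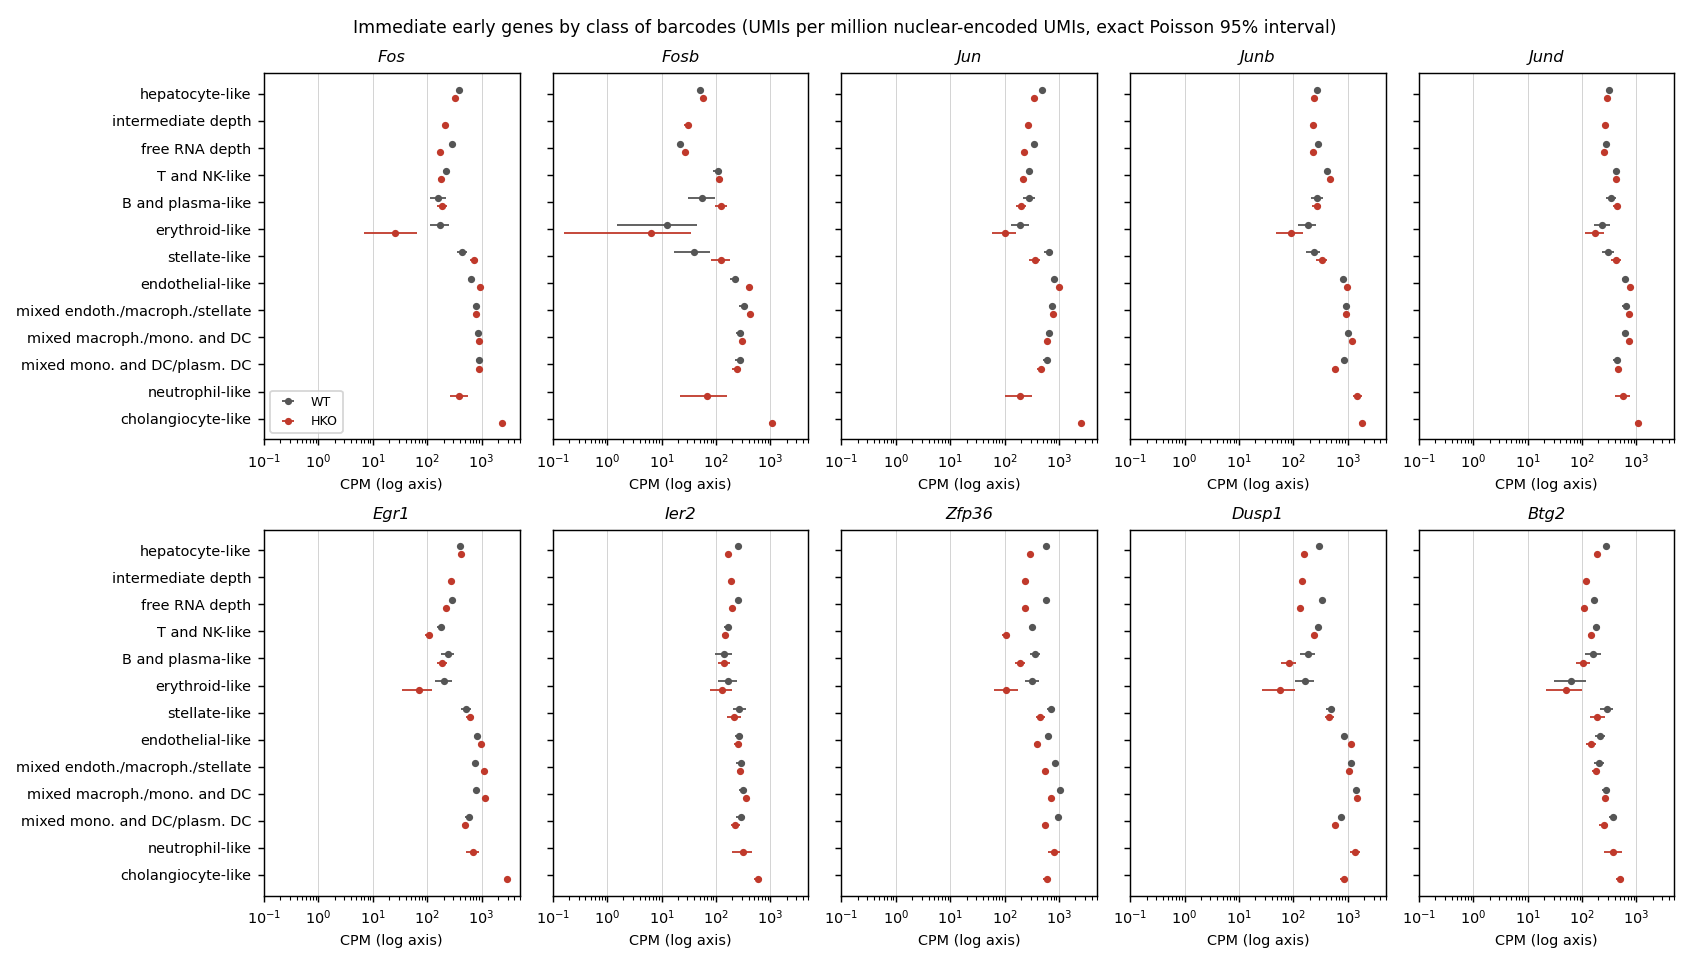
Level of each member (x axis, CPM on a log axis) in the classes of barcodes with at least 20 barcodes in a library (y axis), with WT in grey and HKO in red. Points are summed counts with exact Poisson 95% intervals. Cholangiocyte-like barcodes of HKO lie farthest to the right for 8 members, and erythroid-like barcodes lie farthest to the left for 9 members in HKO.

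Set against hepatocyte-like barcodes of the same library, T and NK-like barcodes had a different makeup of AP-1 subunits. Fosb was 2.10-fold (1.71 to 2.54) higher in WT and 1.98-fold (1.69 to 2.31) higher in HKO, and Junb was 1.52-fold (1.37 to 1.67) and 1.96-fold (1.82 to 2.12) higher. Jund was 1.35-fold and 1.45-fold higher. Fos and Jun were lower, with ratios of 0.580 and 0.583 in WT and 0.552 and 0.618 in HKO, as was Egr1 with 0.441 (0.378 to 0.511) and 0.254 (0.218 to 0.294). In all, 2 members were at least 1.5-fold higher in WT (1 without the barcode with the most UMIs of each gene), where 43.3% of all genes were, and 5 were lower, where 22.8% of all genes were. In HKO 2 were higher, where 44.4% of all genes were, and 4 were lower, where 28.2% were. Without subtraction, the share of members that were higher in T and NK-like barcodes was thus below the share of all genes. In HKO the count of higher members was 4 after subtraction of free RNA or over all UMIs, settings for which the share of all genes is not given here.

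Endothelial-like barcodes (64 in WT and 152 in HKO) had 9 of 10 members above hepatocyte-like barcodes in each library, although for Ier2 (1.04, 0.868 to 1.25) and Zfp36 (1.11, 0.982 to 1.24) in WT the interval included 1. Dusp1 was at 859 CPM (777 to 947) in WT and 1134 CPM (1049 to 1223) in HKO, or 2.83-fold (2.56 to 3.13) and 7.06-fold (6.48 to 7.69) above hepatocyte-like barcodes. Fosb was 4.28-fold and 7.04-fold higher and Junb 2.96-fold and 3.90-fold higher. Btg2 was the exception, with ratios of 0.789 and 0.805. Past 1.5-fold, 7 members were higher in WT, where 48.1% of all genes were, and 8 in HKO, where 49.7% of all genes were. None was lower past that fold, where 22.4% and 24.8% of all genes were. Both sets of ratios share their hepatocyte-like barcodes, so they are not independent of each other.

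Between the libraries, T and NK-like barcodes had 7 members below WT. The median log2 ratio of HKO over WT was −0.27, against −0.01 over 9055 genes. Zfp36 had a ratio of 0.335 (0.277 to 0.403) and Egr1 of 0.604 (0.489 to 0.747), the 2 members past 1.5-fold, where 14.7% of all genes were lower, and 0 were higher past that fold, where 8.88% of all genes were. These ratios changed when free RNA, scaled by Alb, was subtracted, an alternative chosen after seeing the data. Zfp36 was then at 80.6 and 51.8 CPM for WT and HKO, a ratio of 0.643, and Egr1 at 85.8 and 59.6 CPM, a ratio of 0.696, which is short of 1.5-fold. The ratios of Fos (1.12), Dusp1 (1.18) and Ier2 (1.51) were then above 1, and those of Fosb (0.823) and Jund (0.899) below 1. No interval was computed for the subtracted ratios. Free RNA corresponded to 86.6% of the Zfp36, 74.5% of the Egr1 and 73.7% of the Ier2 UMIs in WT, so the ratios of these genes rest on few remaining UMIs. In endothelial-like barcodes the direction was mostly the other one: 7 members were higher in HKO, and the median log2 ratio was 0.30, against 0.03 over 9308 genes. Fosb had 221 CPM (180.5 to 268) in WT and 412 CPM (362 to 468) in HKO, a ratio of 1.86 (1.48 to 2.37), and Fos had 629 and 947 CPM, a ratio of 1.51 (1.30 to 1.74). These 2 were past 1.5-fold higher, where 16.7% of all genes were, and Zfp36 was past 1.5-fold lower (631 and 397 CPM, ratio 0.629, 0.528 to 0.750), where 17.7% of all genes were. Endothelial-like barcodes held less hepatocyte RNA in HKO, with Alb at 7318 CPM against 13457 CPM in WT. After the same subtraction the ratio of Fosb was 1.52, while that of Fos was 1.39 and no longer past 1.5-fold. Junb (1.01), Egr1 (1.07), Jund (1.11) and Jun (1.14) moved toward 1. Btg2 went from 0.696 to 0.657 and Zfp36 from 0.629 to 0.667, both past 1.5-fold lower, Zfp36 by little. The share of all genes past that fold after subtraction is not given here, so these calls are not set against it. The level of Zfp36 was lower in HKO in free RNA itself (0.408) and in hepatocyte-like, T and NK-like and endothelial-like barcodes, each of which holds free RNA. After subtraction its ratios in T and NK-like and endothelial-like barcodes were also below 1, but without an interval. The ratio of Zfp36 in the unnamed clusters (363 WT and 549 HKO barcodes) was 0.546 (0.490 to 0.607). These clusters held much hepatocyte RNA, with Alb at 108% of its free RNA level in WT and at 81.4% in HKO. Unnamed sub-clusters of 205 and 120 barcodes had 8 and 6 of the 8 hepatocyte markers, so this ratio does not describe a separate cell type.

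How many barcodes carried a member was read after each hepatocyte-like barcode had been thinned to 5000 UMIs. Zfp36 was found in 85.2% (83.5 to 86.7) of WT and 61.2% (58.8 to 63.6) of HKO barcodes, Dusp1 in 70.1% and 43.4%, and Fos in 70.0% and 54.0%. Without thinning the shares were 97.0% and 79.4% for Zfp36, 92.5% and 63.8% for Dusp1 and 90.9% and 68.9% for Fos. Barcodes of free RNA depth, which had a median of 2606 UMIs in WT and 896 in HKO, carried Zfp36 in 74.9% and 18.1% of cases without thinning. At an equal depth of 500 UMIs, Zfp36 was found in 22.3% of hepatocyte-like and 24.7% of free RNA barcodes in WT, and in 10.4% and 10.6% in HKO. The corresponding shares of Dusp1 were 12.9% and 15.3% in WT and 6.25% and 5.53% in HKO, and those of Fos 14.2% and 13.1% in WT and 10.99% and 7.07% in HKO. The shares of Zfp36 in both libraries and of Dusp1 in WT were thus no higher in hepatocyte-like barcodes than in free RNA, with intervals that overlapped. Thinning counted mitochondrial UMIs, whose median share was 11.7% in WT and 13.6% in HKO hepatocyte-like barcodes, against 3.11% and 5.98% at free RNA depth. Over nuclear-encoded UMIs, HKO Zfp36 was 1.23-fold (1.17 to 1.29) above free RNA. The thinned shares are therefore not read as expression by the cell. Jund, the least variable member, had a Fano factor (variance over mean, 1 for pure counting noise) of 1.19 in WT and 1.27 in HKO. Fos had 1.82 and 2.66, and Egr1 had 1.66 and 2.62. In HKO the tenth of barcodes with the most Fos UMIs held 43.5% of them, against 33.6% in WT.

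The members were also counted together in single barcodes. A median of 7 members was detected per WT barcode and 5 per HKO barcode at this depth, and 5 or more were found in 84.7% and 59.3% of barcodes. None of the 10 was found in 4 WT barcodes (0.206%) and 47 HKO barcodes (2.94%). Pearson r of log2(UMIs + 1) between members over barcodes, all of 1 library and sharing its free RNA, had a median over the 45 pairs of 0.15 in WT and 0.27 in HKO and was above 0 in all pairs of both. It was highest for Jun with Egr1 in both libraries (0.36 in WT and 0.51 in HKO), followed in HKO by Fos with Egr1 (0.50). Within HKO barcodes with Jun, 78.1% also had Egr1, against 39.7% of those without Jun. The corresponding WT shares were 78.6% and 56.2%. Within single bins of mitochondrial share the median r was 0.13 to 0.20 in WT and 0.20 to 0.42 in HKO, highest in both libraries in the bin under 1%.

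**Figure D4:**
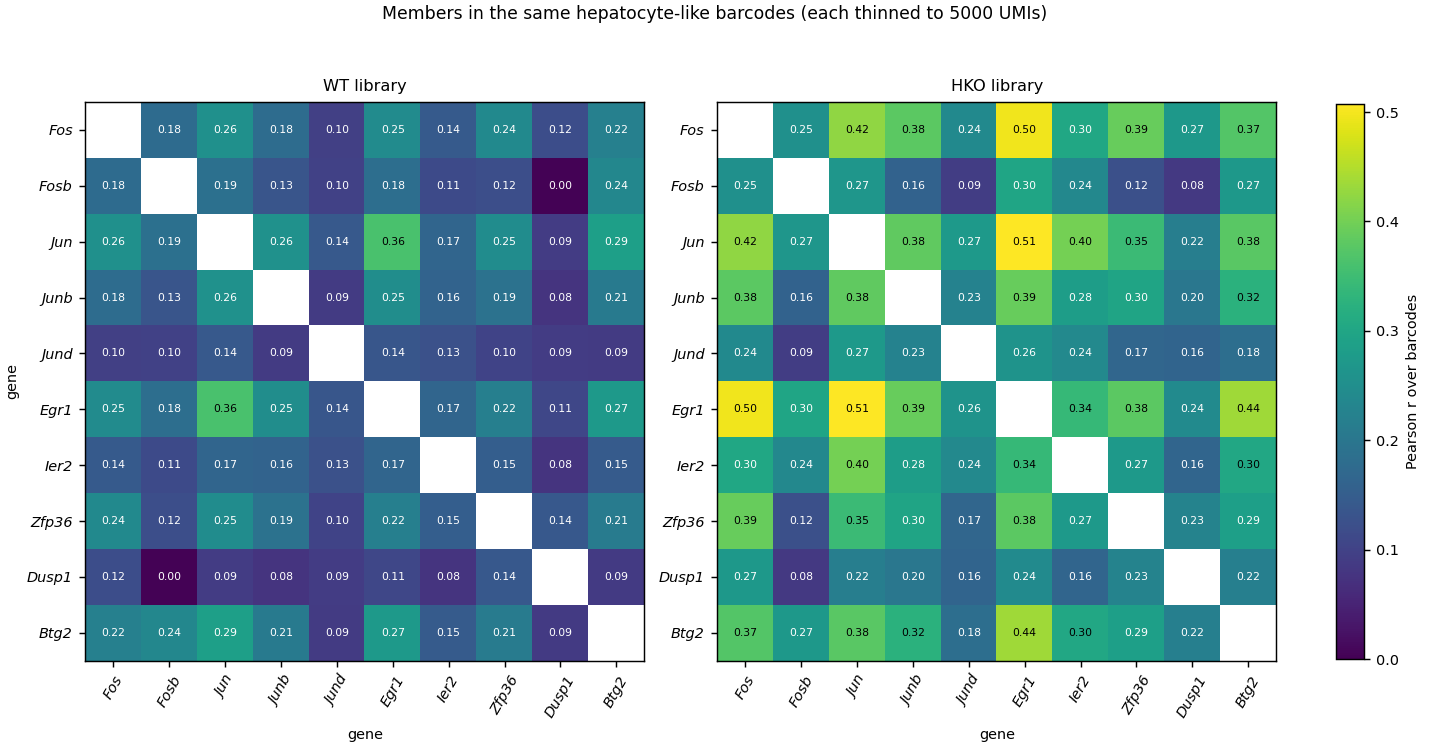
Pearson r between pairs of members over hepatocyte-like barcodes thinned to 5000 UMIs, in WT (left, 1944 barcodes) and HKO (right, 1601 barcodes), with both axes giving the genes and the colour giving r. Jun with Egr1 is the highest pair in both, at 0.36 and 0.51, and pairs with Fosb, Jund or Dusp1 are among the lowest.

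Related genes were read from 4 further lists to place the members, again in hepatocyte-like barcodes and for genes that reached 10 CPM on average. Of 24 measured other immediate early and delayed early genes, 17 were lower and 7 higher in HKO, 7 were lower past 1.5-fold (3.88% of all genes were) and 0 higher (2.98% of all genes were), and the median log2 was −0.30. The lowest ratios were those of Ccn1, a secreted matrix protein (117 and 55.0 CPM, ratio 0.471), Nr4a1, an orphan nuclear receptor (61.1 and 31.3 CPM, ratio 0.512) and Cebpd, a bZIP factor of the acute phase (14.5 and 7.51 CPM, ratio 0.516). The highest were those of Nfkbiz, an atypical IκB protein (1.31), Zfp36l1, a paralog of Zfp36 (1.25), and Mcl1, a BCL2 family protein (1.17). Zfp36l1, at 571 CPM (WT) and 712 CPM (HKO), thus had its ratio on the other side of 1 from Zfp36.

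The other lists were centred near 0, and their counts past 1.5-fold are read against the same shares of all genes. The other AP-1 and bZIP partners had 5 of 10 genes at this level, with a median log2 of 0.10. Atf3, a stress-induced bZIP factor, was the lowest of them (208 and 142 CPM, ratio 0.685), with Mafk next (0.725), while Atf2 (1.07), Maff (1.08) and Atf7 (1.14) were above 1, and 0 genes were past 1.5-fold. Of the 12 heat shock genes, which dissociation of tissue also induces, Hspa1a (0.188 and 0.116 CPM in WT and HKO) and Hspa1b (5.33 and 5.82 CPM) did not reach 10 CPM on average. The 10 measured ones had a median of −0.02, with 5 lower, 5 higher and 0 past 1.5-fold. They ranged from Hspb1 (0.672), Hsp90aa1 (0.831) and Hsph1 (0.860) to Hsp90ab1 (1.03), Dnajb1 (1.05) and Dnaja1 (1.18). The 20 measured kinases and factors upstream had a median of −0.01, with 10 lower, 10 higher and 0 past 1.5-fold. They ranged from Map3k5 (0.754), Map2k7 (0.815) and Mapkapk2 (0.822) to Map2k4 (1.16), Met (1.21) and Map2k2 (1.31).

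**Figure D5:**
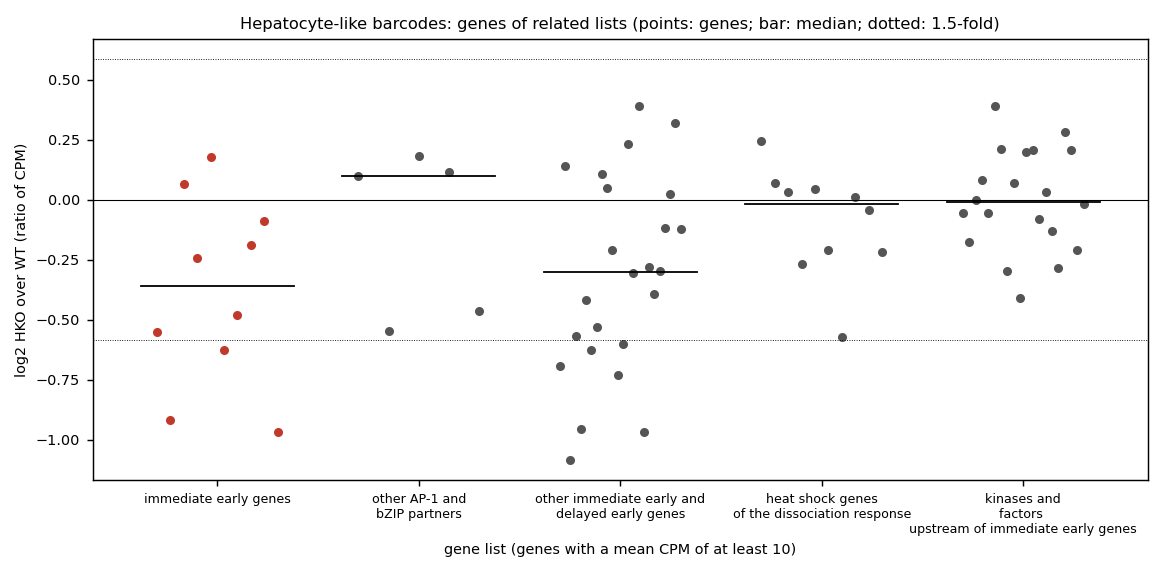
Log2 ratio of HKO over WT in hepatocyte-like barcodes (y axis) for the genes of 5 lists (x axis), with 1 point per gene, a bar at the median and dotted lines at 1.5-fold. The members (red, median −0.36) and the other immediate early and delayed early genes (median −0.30) lie lower than the heat shock genes (−0.02) and the kinases and factors upstream (−0.01).

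Over the 15 profiles of a class in a library with at least 50 barcodes, every member followed the mean of the other members, with Pearson r of log2(CPM + 1) from 0.78 for Btg2 to 0.95 for Fos. Fosb with Jund (0.97) and Junb with Jund (0.96) were the closest pairs, and Fosb with Zfp36 the least close (0.51). Among 7985 other genes with at least 10 CPM in at least 50% of the profiles, those most like the members' mean were Lrp5 (0.97), a Wnt co-receptor, Rac1 (0.97), a small GTPase, and Pde7b (0.96), a cAMP phosphodiesterase. The profiles share libraries and free RNA, and these values are a description.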

How the data were processed

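The 2 libraries, 1 per genotype, were droplet 3′ single-cell RNA-seq of pooled mouse liver cells. The deposited values are raw UMI counts per gene and barcode, which the authors made with Cell Ranger 7.1.0 per the file headers. The labels name mm10 as the genome build, R 3.0 and Seurat 3, and the annotation, the use of intron reads and the choice of barcodes are not given in the sources used here. The WT barcode list was not used here.

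Barcodes with at least 500 UMIs, 300 genes and at most 50% mitochondrial UMIs were kept. Barcodes were clustered (scanpy 1.11.5, leidenalg 0.10.2, 2000 variable genes, 30 components, resolution 1) without the members and the other listed genes, and clusters were named from at least 3 markers of a cell type other than hepatocytes. Clusters with such markers were pooled and clustered again. Sub-clusters without 3 such markers stayed unnamed, also where hepatocyte markers were high, and were not counted as hepatocyte-like. Scrublet gave 0 automatic doublet calls in each library, and the reason was not examined. As an alternative the top-scoring 23.7% of WT and 14.6% of HKO barcodes were left out. Summed counts were divided by the nuclear-encoded total. Intervals of levels are exact Poisson, those of ratios exact conditional and those of shares Clopper-Pearson (scipy 1.17.1), all at 95%. A gene was called past 1.5-fold, with no test, since each genotype had 1 library. Shares of barcodes with a UMI were read after thinning to 5000 UMIs. The steps were tested on simulated data.

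The members and gene lists were chosen with earlier results of these data known. Named in the text are all 10 members, the 3 genes with the highest and the 3 with the lowest ratio of each other list, and the 3 genes most like the members' mean. Alternatives changed the denominator, the depth minimum, the mitochondrial maximum, the weight of barcodes and bins, doublets, thinning and free RNA. Leaving out the bin under 1%, and subtracting free RNA scaled by Alb between the libraries, were added after seeing the data.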

Additional observations from a re-analysis of the deposited data

Results flagged for a closer look

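With 20 to 50% against under 5% mitochondrial UMIs, 2 members lay on opposite sides of 1 in the libraries, each with an interval that left out 1. Ier2 had a ratio of 0.701 in WT and of 1.17 in HKO, and Zfp36 had 0.882 in WT and 1.14 in HKO. The difference between the libraries was not tested. Without barcodes under 1%, the HKO log2 values of Ier2 (−0.014) and Zfp36 (−0.16) were on the same side as those of WT, and they were also below 0 over all UMIs (−0.30 and −0.34).

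Between the libraries, 5 members had opposite directions in hepatocyte-like and endothelial-like barcodes, and none of these differences was tested. The ratio of HKO over WT was 0.846 and 1.51 for Fos, 0.718 and 1.26 for Jun, 0.878 and 1.16 for Junb, 0.941 and 1.24 for Jund and 0.529 and 1.32 for Dusp1. The endothelial-like values rested on 64 WT and 152 HKO barcodes, and without the barcode with the most UMIs of each gene those of Fos and Dusp1 were 1.70 and 1.44. After subtraction of free RNA scaled by Alb they were 1.39 for Fos, 1.14 for Jun, 1.01 for Junb, 1.11 for Jund and 1.20 for Dusp1, so that the value of Junb was close to 1 and that of Fos no longer past 1.5-fold. No interval was computed for these subtracted values. Alb in endothelial-like barcodes was at 37.1% of its free RNA level in WT and at 21.2% in HKO.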

How the results depend on the processing

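No paired analysis was possible because each genotype had 1 library, and for the same reason no replicate could be left out. The median log2 ratio of HKO over WT in hepatocyte-like barcodes stayed below 0 under all 10 alternatives (−0.46 to −0.34) and moved to −0.46 when only 2 times the commonest depth was required, where Egr1 turned to −0.052. Between 2 and 4 members were past 1.5-fold lower under them, Zfp36 and Dusp1 under each, while Ier2 lost that call under 5 of them and Btg2 gained it under 3. Zfp36 was past 2-fold under 2. The contrast of 20 to 50% against under 5% mitochondrial UMIs was less stable. Over all UMIs, mitochondrial ones included, its median was −0.32 in both libraries, as the construction of that denominator brings with it, and Fos (−0.19), Jun (−0.064), Egr1 (−0.046) and Btg2 (−0.031) turned in WT, and Fosb (−0.28), Junb (−0.34), Jund (−0.38), Egr1 (−0.21), Ier2 (−0.30), Zfp36 (−0.34), Dusp1 (−0.11) and Btg2 (−0.12) in HKO. Within 5000 to 20000 UMIs the WT median was −0.028, with Fos at −0.10 and Fosb at −0.26. Without barcodes under 1%, the HKO median was −0.073, with Fosb at −0.049, Junb at −0.13, Jund at −0.074, Egr1 at −0.0056, Ier2 at −0.014, Zfp36 at −0.16 and Dusp1 at −0.071. The HKO median was 0.37 with barcodes weighted equally and 0.47 for the top over the bottom 20% by mitochondrial share. The number of members past 1.5-fold higher in T and NK-like than in hepatocyte-like barcodes was 1 in WT with barcodes weighted equally or without the highest barcode, and 4 in HKO over all UMIs or with free RNA subtracted. Over 7 alternatives it ranged from 1 to 3 in WT and from 2 to 4 in HKO, and the shares of all genes under them are not given here. Beyond what the construction of a setting fixes, the cause was not tested. Between the libraries, T and NK-like Fos (0.16) and Dusp1 (0.24), whose intervals had left out 1, turned when free RNA scaled by Alb was subtracted, an alternative chosen after seeing the data. Ier2 (0.60), Fosb (−0.28) and Jund (−0.15), whose intervals had included 1, also crossed to the other side. No interval was computed for the subtracted values. Of 320 values of single members under these alternatives, 216 kept within their interval, 80 moved beyond it and 24 turned direction where that interval had kept to one side. Depth limited the order of classes, in which the intervals of 3 to 8 neighbouring pairs in WT and of 6 to 11 in HKO overlapped for a member.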
